A study of Homo sapiens with 6 samples.

Results

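The axon guidance ligands and receptors were examined in HEK293 cells, a human embryonic kidney line, with and without knockdown of the long non-coding RNA HSALNG0134318. Members were taken by gene symbol from 8 families: the ephrins and their Eph receptors, the semaphorins of classes 3 to 7 and the plexins, the SLIT ligands and ROBO receptors, and the netrins and UNC5 receptors. Of 26485 gene names in the count table, 66 matched, and the 60 with at least 10 counts in every culture were kept. They comprised 33 ligands (8 ephrins, 19 semaphorins, 3 SLIT genes, 3 netrins) and 27 receptors (12 Eph receptors, 9 plexins, 3 ROBO and 3 UNC5 genes).

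Polyadenylated RNA was sequenced from 3 knockdown and 3 control cultures of the same line, given as biological replicates. Knockdown cells received a Smart Silencer, a reagent that combines antisense oligonucleotides with small interfering RNAs, delivered transiently with Lipofectamine RNAiMAX. Control cultures were labelled NC and of genotype WT, and what they were transfected with is not given in the sources used here. The titles write the line as HEK393 and all other labels as HEK293. HSALNG0134318 is not among the gene names of the table, so the extent of its knockdown was not measured here.

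Axon guidance cues are secreted or membrane-bound proteins that attract or repel growing axons through receptors on the cell surface. Ephrins are tethered to the membrane and signal to Eph receptor tyrosine kinases upon cell contact. Semaphorins act through plexins, class 3 members commonly with neuropilins, SLIT proteins repel through ROBO receptors, and netrins act through DCC, neogenin and UNC5 receptors. The same families pattern epithelia and vessels outside the nervous system, and in the embryonic kidney SLIT2 and ROBO2 restrict the outgrowth of the ureteric bud.

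Libraries held 13900965 to 15583535 counts in the knockdown group and 14732648 to 16869948 in the control group. The summed level of 10 HEK293 and embryonic kidney markers was 25594 to 30702 normalised counts in knockdown and 24318 to 30448 in control cultures. Of these 10, LIN28B was called lower. Blood markers summed to 0 to 9.2 over all cultures, with CD3E and HBB at 0. A list of 7 fibroblast markers summed to 668.0 to 995.1 in knockdown and 604.2 to 824.5 in control cultures, with no gene called. A list of 7 neuron-like genes summed to 3945 to 4220 in knockdown and 3039 to 3820 in control cultures, with STMN2 at 0 and no gene called. A list of 4 proximal tubule markers summed to 579 to 717 in knockdown and 821 to 1202 in control cultures, with LRP2 called lower. The part of these lists in the results below was not tested. In bulk RNA a change in the share of cells cannot be told apart from a change in RNA per cell. Control replicate 2 stood apart from the other controls, with a root mean square log2 difference over genes of 0.445 and 0.485 from them. This difference was 0.369 between controls 1 and 3 and 0.271 to 0.315 among knockdown cultures. From the knockdown cultures, control 3 differed by 0.397 to 0.413, control 1 by 0.467 to 0.497 and control 2 by 0.527 to 0.545. Control 3 was thus nearer to the knockdown cultures than to control 2.

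The control cultures expressed members of all 8 families. Levels between genes are given as CPM, counts scaled to the effective library size, per kilobase of exon, and as the range over the 3 controls. PLXNB2, a plexin that binds class 4 semaphorins, had the highest level, between 65.3 and 72.7 in the 3 controls. SLIT2 followed at 34.9 to 43.7, and EFNB2, a transmembrane ephrin, at 21.7 to 28.6. These 3 ranges did not overlap each other. ROBO1, a receptor of SLIT proteins, at 15.5 to 21.9, and EPHA7, an Eph receptor of A ephrins, at 15.9 to 20.5, overlapped each other and could not be ordered, and the highest ROBO1 value was above the lowest of EFNB2. With the length of the longest transcript in place of all exons, PLXNB2 (74.1 to 82.5) and SLIT2 (48.0 to 60.1) stayed the highest, while EPHA7 (32.7 to 42.1) lay above EFNB2 (21.7 to 28.6) and ROBO1 (22.8 to 32.3) overlapped it.

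The median length-scaled level of the members was 3.14 as the mean of the 6 cultures, and the lowest members in the controls were SEMA3G at 0.285 to 0.364 and EPHA6 at 0.230 to 0.250. The leading members thus came from plexins, SLIT ligands, ephrins, ROBO receptors and Eph receptors. The 6 matching genes below 10 counts in at least 1 culture were EPHA1 (4 to 10 counts), EPHA8 (6 to 14), SEMA4A (4 to 10), ROBO4 (0 to 4), NTN5 (4 to 10) and UNC5D (2 to 9), and these were not described further.

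**Figure D1:**
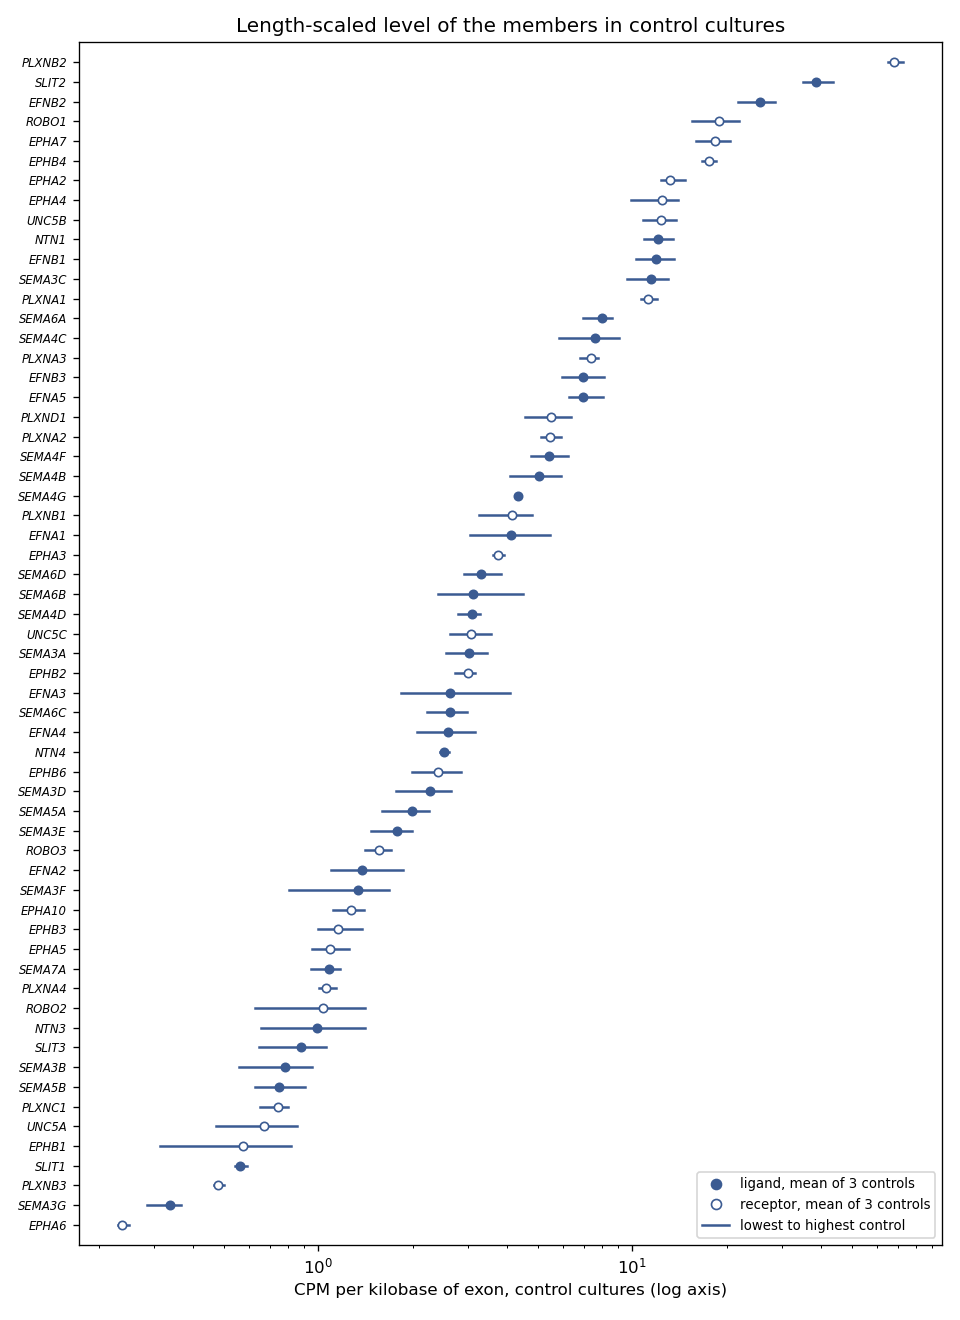
Level of each of the 60 members in the control cultures, in CPM per kilobase of exon on a log axis. Points are means of 3 cultures, filled for ligands and open for receptors, and lines run from the lowest to the highest control. PLXNB2 and SLIT2 stand at the top, and SEMA3G and EPHA6 at the bottom.

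The comparison of knockdown with control cultures asked whether guidance ligands and receptors changed when HSALNG0134318 was targeted. EPHA4, SEMA4F and EPHA2 fell, and NTN4, UNC5C, NTN1, EPHB1, PLXNA4 and SEMA3D rose, at an adjusted p under 0.05 over 14877 genes tested. The 3 that fell were 5.0% of the members, beside 4.64% of all genes tested called lower. The 6 that rose were 10% of the members, beside 5.4% of all genes called higher. In either direction 15% of the members were called, against 10% of all genes, and the other 51 members were not called. The median log2 fold change was -0.03 over the members and -0.02 over all genes tested, with 32 members below and 28 above 0.

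Calls fell among both ligands and receptors, though not in every family. Of the 33 ligands 1 fell and 3 rose (12.12% called), and of the 27 receptors 2 fell and 3 rose (18.52% called). Both shares stand beside 10% of all genes tested. The knockdown and control values did not overlap for 23 members, 8 lower and 15 higher, which was 38.33% of them beside 32.2% of all genes tested. After each library was adjusted for how its counts varied with the GC content and length of transcripts (GC and length correction), 8 members were lower and 12 higher, and 1517 and 1373 of all genes were lower and higher. The members had a median GC content of 58.0% against 48.6% over all genes tested, and the part of GC content in the calls was not tested beyond this correction. The count of members lower was 1 without knockdown replicate 2, 5 without control replicate 2 and 6 without control replicate 3, beside 247, 1238 and 994 of all genes called lower in these fits and 690 with all cultures.

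**Figure D2:**
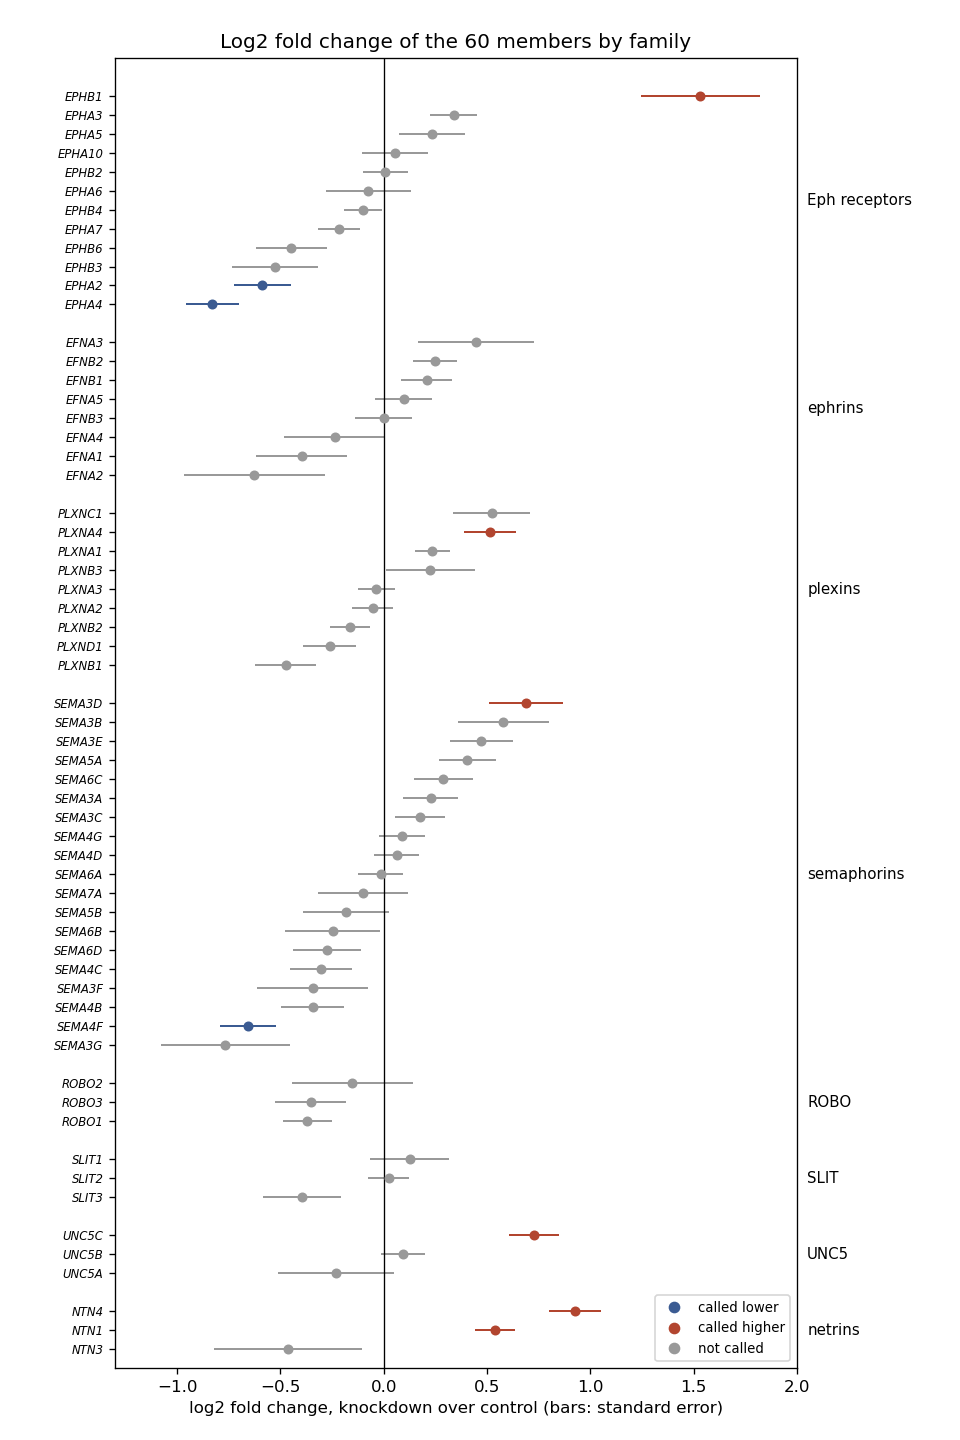
Log2 fold change of each member, knockdown over control, by family, with bars of 1 standard error. Blue points were called lower, red points higher and grey points were not called. The values run from -0.83 for EPHA4 to 1.53 for EPHB1. The ephrin, SLIT and ROBO families, each of few genes, hold no called member, beside 10% of all genes tested.

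Among the ligands, the netrins, laminin-related secreted cues, held 2 of the 3 calls for a rise. NTN4, a netrin found in basement membranes, had 315.2, 309.8 and 315.6 normalised counts in the knockdown cultures and 171.4, 159.8 and 163.6 in the controls. The groups were far apart relative to the spread within each, with a fold of 1.90 (log2 0.93 ± 0.13 SE, n = 3 per group, edgeR adjusted p = 0.0013). NTN1, the founding axon attractant that also repels through UNC5 receptors, had 1716, 1691 and 1676 normalised counts against 1049, 1300 and 1145. All knockdown values of NTN1 were higher than all controls, with a fold of 1.45 (log2 0.54 ± 0.10 SE, adjusted p = 0.00626). NTN3, the remaining measured netrin, had only 16.1 to 46.4 normalised counts and a log2 fold change of -0.46 ± 0.36, which was not called (adjusted p = 0.442).

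Of the UNC5 receptors, which mediate repulsion by netrins, UNC5C rose. Its normalised counts were 794.3, 819.9 and 835.2 in knockdown and 487.7, 422.2 and 569.0 in control cultures. The lowest knockdown value of UNC5C was above the highest control, with a fold of 1.66 (log2 0.73 ± 0.12 SE, adjusted p = 0.00406). UNC5B, the UNC5 gene with the most counts and a receptor known from endothelium, overlapped between the groups, at 1258 to 1449 against 1111 to 1418 normalised counts (log2 0.09 ± 0.11, adjusted p = 0.624). NEO1, which encodes neogenin, a receptor of netrins and of repulsive guidance molecules outside the member families, fell from 4282 to 5158 normalised counts in the controls to 3431 to 3530 (log2 -0.44 ± 0.09, adjusted p = 0.0123). Its call was lost when any knockdown culture or control replicate 1 was left out, with adjusted p up to 0.0734. DCC, the attractive netrin receptor, had at most 1.0 normalised count in any culture and was not tested.

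For NTN4 and UNC5C, promoter sequences from RefSeq (GRCh38.p14, 250 bases before to 50 after the gene start) are shown because both genes rose under every alternative tried; capitals mark CCAAT or its reverse complement ATTGG, and GGGCGG or CCGCCC. NTN1 is not in the promoter table.
NTN4, chr12:95791106-95791405, minus strand: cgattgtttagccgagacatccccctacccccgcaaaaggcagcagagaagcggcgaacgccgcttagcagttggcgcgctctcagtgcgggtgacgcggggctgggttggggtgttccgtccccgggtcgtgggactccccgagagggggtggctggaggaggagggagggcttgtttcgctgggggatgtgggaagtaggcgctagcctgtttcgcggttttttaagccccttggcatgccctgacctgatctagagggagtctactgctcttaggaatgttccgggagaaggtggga
UNC5C, chr4:95548924-95549223, minus strand: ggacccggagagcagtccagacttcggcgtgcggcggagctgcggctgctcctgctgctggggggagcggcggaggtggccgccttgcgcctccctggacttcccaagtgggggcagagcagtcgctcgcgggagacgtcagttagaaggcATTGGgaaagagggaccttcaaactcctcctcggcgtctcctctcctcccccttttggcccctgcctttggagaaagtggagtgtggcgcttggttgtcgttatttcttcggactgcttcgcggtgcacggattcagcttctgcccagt
The window of each gene is set on its RefSeq start, which lay 34 bases for NTN4 and 233 bases for UNC5C inside the gene as GENCODE places its start, so most of the UNC5C window is within the GENCODE gene. The NTN4 window held neither motif, and the UNC5C window held 1 CCAAT box on the reverse strand. NTN4 lies at chr12:95657807-95791189 and UNC5C at chr4:95162504-95549206, both on the minus strand in hg38.

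The Eph receptors, receptor tyrosine kinases for ephrins, held the calls with the largest changes in both directions among the members. EPHA4, which binds ephrins of both classes and mediates repulsion, had 748.0, 802.2 and 832.0 normalised counts in the knockdown cultures and 1593, 1509 and 1130 in the controls. The 3 knockdown values were close together, and the lowest control, replicate 3, was still above all of them. EPHA4 was at 0.563 of the control level (log2 -0.83 ± 0.13 SE, adjusted p = 0.00259). EPHA2, an epithelial Eph receptor, had 656.4, 517.4 and 469.1 normalised counts against 771.4, 920.2 and 778.8. The groups did not overlap, although knockdown replicate 1 lay nearer to the controls, and the fold was 0.665 (log2 -0.59 ± 0.14, adjusted p = 0.0213). Without knockdown replicate 2, knockdown replicate 3 or control replicate 1 the adjusted p of EPHA2 was 0.102, 0.115 and 0.0551.

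EPHB1, a receptor of B ephrins, rose from a low level. It had 138.8, 176.3 and 123.5 normalised counts in knockdown cultures and 27.6, 51.8 and 72.0 in controls, which themselves varied widely. The groups were separate, with a fold of 2.89 (log2 1.53 ± 0.29 SE, adjusted p = 0.00784), and the log2 fold change ran from 1.24 to 1.87 when single cultures were left out. EPHA3, a receptor of A ephrins, had non-overlapping values of 434.7 to 498.1 against 355.2 to 384.8 normalised counts but was not called (log2 0.34 ± 0.11, adjusted p = 0.0824). EPHA7, which had the most counts of the Eph receptors, had 3854 to 4010 against 3945 to 5074 (log2 -0.22 ± 0.10, adjusted p = 0.196). Its values overlapped through control replicate 2, and without that culture EPHA7 was called lower (log2 -0.31, adjusted p = 0.012).

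The promoters of EPHA4 and EPHB1, the receptors at the ends of the range of changes, are shown with the same motifs in capitals.
EPHA4, chr2:221574153-221574452, minus strand: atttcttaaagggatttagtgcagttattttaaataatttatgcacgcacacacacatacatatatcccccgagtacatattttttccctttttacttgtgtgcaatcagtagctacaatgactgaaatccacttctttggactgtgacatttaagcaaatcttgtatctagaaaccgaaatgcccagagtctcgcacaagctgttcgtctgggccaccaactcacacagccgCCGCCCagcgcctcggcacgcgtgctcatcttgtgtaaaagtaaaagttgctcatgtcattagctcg
EPHB1, chr3:134795010-134795309, plus strand: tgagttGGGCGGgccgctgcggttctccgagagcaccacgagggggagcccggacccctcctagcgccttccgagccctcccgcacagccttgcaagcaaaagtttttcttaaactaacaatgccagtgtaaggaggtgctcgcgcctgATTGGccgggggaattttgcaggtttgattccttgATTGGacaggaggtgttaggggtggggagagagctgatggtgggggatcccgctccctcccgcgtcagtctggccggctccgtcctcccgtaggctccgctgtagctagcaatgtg
Each held 1 GC box, GGGCGG on either strand, and EPHB1 also held 2 CCAAT boxes on the reverse strand. A GC box was found in 40 of the 52 members with a RefSeq promoter (76.9%), in 69.7% of the tested genes and in 44.6% of all promoters in the table. For some members the RefSeq start lay far inside the GENCODE gene, by 72218 bases for PLXNA4 and 404185 for ROBO2. The shares are thus of windows, not all of them at the GENCODE start. CCAAT was present in 34.6% of the member promoters and 36.3% of the tested ones, the E-box CACGTG in 5.8% and 9.9%, and TATAAA in 1.9% and 5.6%. These are counts of letters on either strand and not of bound sites. EPHA4 lies at chr2:221418027-221574202 on the minus strand and EPHB1 at chr3:134795260-135260467 on the plus strand (hg38).

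The 3′ untranslated regions of the members were also searched for the 7-base seed matches of the silencers, since small interfering RNAs can act on transcripts that pair with their seed. Only silencers of 19 bases were read as small interfering RNAs, because the sources used here do not say which of the 6 silencers are of that kind. Of these 6, 5 had an exact match in hg38 on chromosome 22, from which the letters were read. The other, of 18 bases, had none and was not searched for seed matches. TATACGT, from chr22:22307418-22307436, was present in EPHA4, EPHA6 and SEMA6D, 3 of 59 members with a 3′ untranslated region (5.08%) and 2.7% of 13309 tested genes. CTATCAC, from chr22:22307525-22307543, was present in EFNA1, EPHA6 and SLIT1, again 3 of 59 members (5.08%) beside 5.55% of tested genes. The matches of TATACGT are shown in capitals because EPHA4 is the called member that carries one.
EPHA4, chr2:221425390-221425418, minus strand: taaaatatataTATACGTaacccaagccc
EPHA6, chr3:97757023-97757051, plus strand: gttaattatggTATACGTgctatagtaac
SEMA6D, chr15:47773369-47773397, plus strand: agagcgtcattTATACGTagtttggcaga
The EPHA4 match shared a run of 10 bases with the silencer site, those of SEMA6D and EPHA6 8 and 7. EPHA6 and SEMA6D were not called, with log2 fold changes of -0.07 and -0.27. Of the 360 tested genes with TATACGT, 76 were called lower and 17 higher, and of the rest of the 13309, 596 and 730. Of the 739 with CTATCAC, 104 were lower and 32 higher, and of the rest 568 and 715. The median log2 fold change was -0.158 with TATACGT and -0.027 without, and -0.086 and -0.027 for CTATCAC. No member with CTATCAC was called. Whether pairing with a silencer had a part in the level of EPHA4 was not tested.

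**Figure D3:**
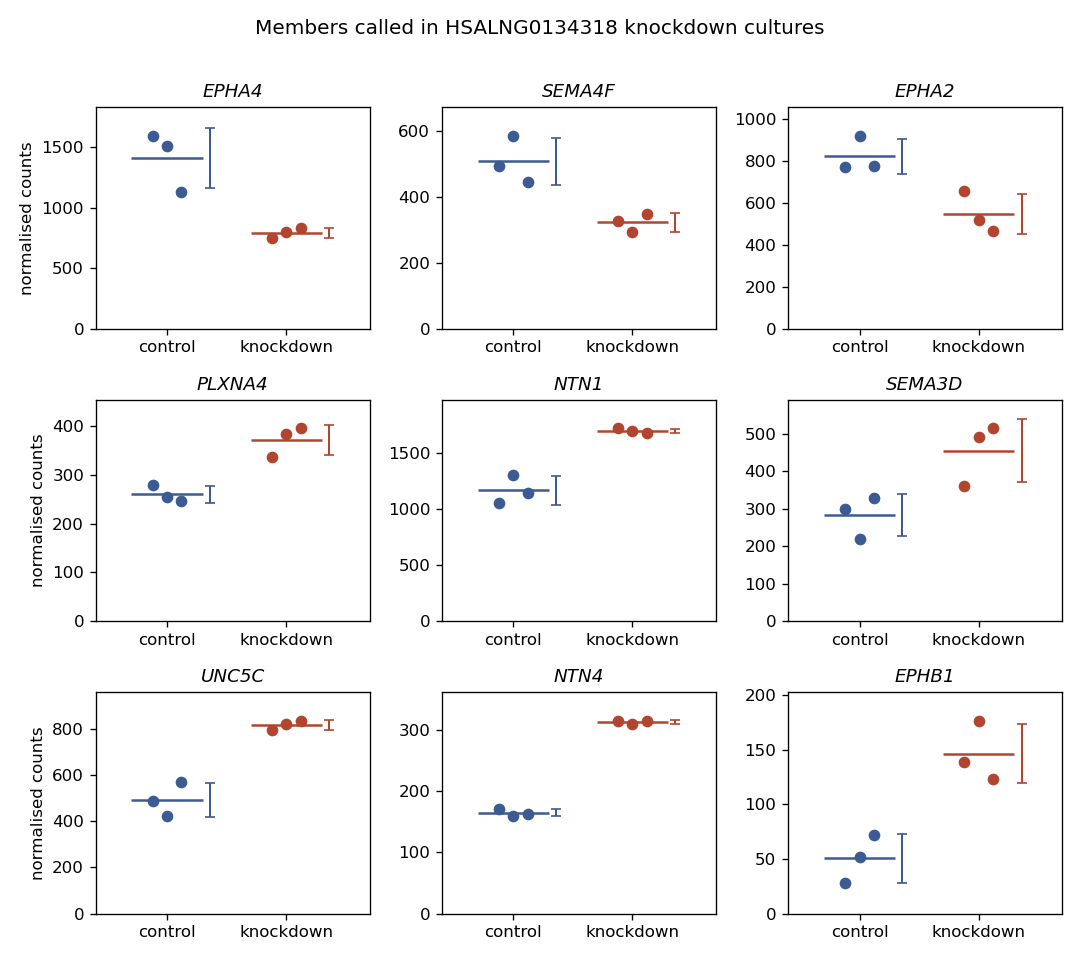
Normalised counts of the 9 called members in each culture, control in blue and knockdown in red. Points are the 3 cultures of a group, horizontal lines are means, and the bars at the right of each group are 1 SD, on axes that start at 0. In each panel the groups do not overlap, with the narrowest spread for NTN4.

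No ephrin was called, with log2 fold changes from -0.63 to 0.45. EFNB2, a ligand of EphB receptors and EPHA4 and the ephrin with the most counts, had 2279, 2203 and 2363 normalised counts against 1982, 1632 and 2151. Its groups did not overlap, but the difference was not called (log2 0.25 ± 0.11, adjusted p = 0.16). EFNA2, a ligand of EphA receptors, had the largest difference of the ephrins at few counts, 24.0 to 50.5 against 40.1 to 67.8, and its values overlapped (log2 -0.63 ± 0.34, adjusted p = 0.269). Of the 12 Eph receptors 3 were called and of the 8 ephrins none, beside 10% of all genes tested. With only 8 ephrins, at standard errors of 0.11 to 0.34, the lack of a call does not set them apart from that share. A difference between the families was not tested.

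Of the 19 semaphorins, SEMA3D rose and SEMA4F fell, 10.53% called beside 10% of all genes tested. SEMA3D, a secreted class 3 semaphorin, had 359.5, 492.4 and 514.2 normalised counts in knockdown and 299.0, 219.6 and 329.2 in control cultures. The lowest knockdown value was only slightly above the highest control, and the fold was 1.61 (log2 0.69 ± 0.18 SE, adjusted p = 0.032). Without knockdown replicate 2, knockdown replicate 3 or control replicate 1 its adjusted p was 0.126, 0.143 and 0.0847. SEMA4F, a transmembrane class 4 semaphorin, had 326.8, 293.1 and 350.0 normalised counts against 495.9, 585.5 and 445.5. The groups were separate, at a fold of 0.635 (log2 -0.66 ± 0.13, adjusted p = 0.0116), and the adjusted p was 0.0526 and 0.0758 without knockdown replicates 1 and 2.

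The 7 class 3 semaphorins had a median log2 fold change of 0.23, with 5 above 0, and the 5 class 4 semaphorins had a median of -0.30, with 3 below 0. The 2 class 5 and 4 class 6 semaphorins had medians of 0.11 and -0.13, beside -0.02 over all genes tested. A difference between the classes was not tested. SEMA3E, a secreted ligand of plexin D1, was at 281.5 to 351.0 against 186.5 to 253.1 normalised counts without overlap (log2 0.47 ± 0.15, adjusted p = 0.0745). SEMA5A, a transmembrane semaphorin with thrombospondin repeats, was at 476.2 to 497.0 against 295.4 to 417.7 (log2 0.41 ± 0.14, adjusted p = 0.0886). Neither gene's groups overlapped, and neither difference was called. SEMA3A, the founding secreted repellent, overlapped between groups at 454.1 to 518.5 against 355.2 to 478.4 (log2 0.23 ± 0.13, adjusted p = 0.302). SEMA3G, a secreted semaphorin, had 12.5 to 17.2 against 21.6 to 27.7 normalised counts (log2 -0.77 ± 0.31, adjusted p = 0.141), and SEMA6A, a transmembrane semaphorin with the most counts of its family, was near 0 on the log2 scale (-0.01 ± 0.11, adjusted p = 0.95).

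Among the 9 plexins, the semaphorin receptors, PLXNA4 rose, 11.11% called beside 10% of all genes tested. This receptor of class 3 and class 6 semaphorins had 336.4, 382.8 and 395.0 normalised counts against 279.6, 254.4 and 246.9. The groups were separate, with a fold of 1.43 (log2 0.51 ± 0.13 SE, adjusted p = 0.0258). Leaving out knockdown replicates 1, 2 or 3 or control replicate 1 gave PLXNA4 an adjusted p of 0.0504, 0.123, 0.137 and 0.053. PLXNB1, the receptor of SEMA4D, had 401.6 to 463.6 against 476.4 to 702.0 normalised counts (log2 -0.48 ± 0.15, adjusted p = 0.065), and PLXNC1, the receptor of SEMA7A, had 126.3 to 178.4 against 98.2 to 120.4 (log2 0.52 ± 0.19, adjusted p = 0.0993). Neither pair of ranges overlapped and neither was called, although PLXNB1 had an adjusted p of 0.0103 with the GC and length correction and 0.0301 with DESeq2. PLXNB2, the member with the highest level, overlapped between the groups (log2 -0.16 ± 0.10, adjusted p = 0.319).

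No SLIT or ROBO gene was called, beside 10% of all genes tested. With 3 genes in each family, the lack of a call does not set them apart from that share. ROBO1 had 2527, 2357 and 2393 normalised counts in knockdown and 3192, 2573 and 3639 in control cultures. The groups of ROBO1 did not overlap, control replicate 2 being the nearest to the knockdown values (log2 -0.37 ± 0.12, adjusted p = 0.0708). Without control replicate 2 ROBO1 was called lower (log2 -0.49, adjusted p = 0.000716), and the adjusted p was 0.0104 with the GC and length correction and 0.0448 with DESeq2. ROBO2, a receptor of SLIT2, varied widely in both groups, from 161.0 to 271.2 against 157.4 to 354.1 (log2 -0.15 ± 0.29, adjusted p = 0.785). SLIT2 had 6208, 6786 and 6565 normalised counts against 7278, 6153 and 5809, so the groups overlapped (log2 0.02 ± 0.10, adjusted p = 0.909). SLIT3, another secreted repellent, had 136.9 to 148.1 against 138.9 to 226.7 (log2 -0.40 ± 0.19, adjusted p = 0.204), and its adjusted p was 0.0349 without control replicate 3.

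The remaining 34 members were not called and had log2 fold changes from -0.53 for EPHB3 to 0.58 for SEMA3B, 20 below and 14 above 0, with an adjusted p of 0.104 or more.

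**Figure D4:**
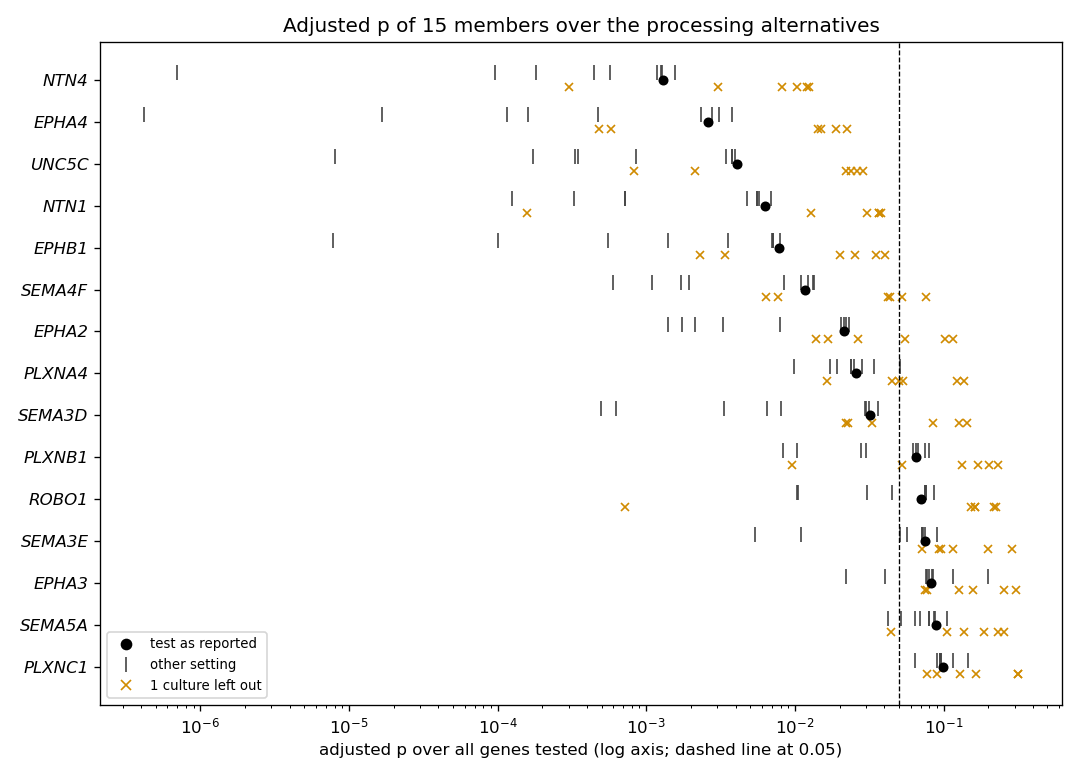
Adjusted p over all genes tested, on a log axis, of the 15 members under 0.10, for the test as reported (points), other settings (vertical marks) and fits with 1 culture left out (crosses). NTN4, EPHA4, UNC5C, NTN1 and EPHB1 stay left of the dashed line at 0.05 in all of the 15 alternatives, while the other called members cross it.

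NTN4, EPHA4, UNC5C, NTN1 and EPHB1 kept their call in all 15 alternatives, with the highest adjusted p at 0.0125, 0.0225, 0.0287, 0.0379 and 0.0405. SEMA4F lost it in 2, EPHA2 and SEMA3D in 3 each and PLXNA4 in 5. With 3 cultures a group, an exact permutation test of a single gene cannot go below a two-sided p of 0.1, so the calls rest on the spread shared across genes.

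Other genes of the pathway were taken from lists of coreceptors, further ligands, cytoplasmic effectors and the proteases that cleave guidance proteins. Of 144 such genes 134 were tested, 5 fell and 4 rose, 6.72% beside 10% of all genes. Among 86 cytoplasmic effectors 1 fell and 4 rose, 5.81% called. MICAL2 and MICAL3, oxidases that disassemble actin, of a family that acts downstream of plexins, rose with log2 fold changes of 0.73 ± 0.11 (adjusted p = 0.00271) and 0.29 ± 0.08 (adjusted p = 0.0494). DOCK1, an activator of Rac, rose by 0.57 ± 0.10 (adjusted p = 0.00438), and FARP1, a guanine nucleotide exchange factor linked to plexin A4, by 0.43 ± 0.09 (adjusted p = 0.0143). CRMP1, a cytosolic mediator of SEMA3A signalling, was the effector that fell.

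Of 14 ectodomain proteases 3 fell and none rose, 21.43% called beside 10% of all genes tested. FURIN, a proprotein convertase that processes class 3 semaphorins, fell from 3880 to 4715 normalised counts in the controls to 2569 to 2840 (log2 -0.66 ± 0.10, adjusted p = 0.00167). PSEN2, a catalytic subunit of gamma-secretase, fell from 697.6 to 893.4 to 458.4 to 481.0 (log2 -0.72 ± 0.12, adjusted p = 0.00341). ADAM19, a metalloprotease, also fell (log2 -0.47 ± 0.12, adjusted p = 0.0287), a call lost in 5 of the 15 alternatives, among them the fits without any single knockdown culture or without control replicate 1. FARP1 and MICAL3 lost their calls in 4 and 9 alternatives, whereas DOCK1, FURIN, MICAL2 and PSEN2 kept theirs in all 15. Of 16 tested coreceptors and other receptors, NEO1 was the 1 called (6.25%), and none of 18 further ligands and matrix partners was called.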

How the data were processed

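Polyadenylated RNA from 3 knockdown and 3 control HEK293 cultures was sequenced from a stranded library kit. The deposited table holds raw counts per gene symbol. According to the submitters' processing notes, the authors used FastQC 0.11.9, Trim Galore 0.6.6, STAR 2.7.9a and featureCounts 2.0.1 on hg38; the study's methods give other versions of the last pair and add rRNA removal. The gene annotation, the strand setting and the treatment of multimapping reads are not given in the sources used here, so reads of overlapping or antisense genes could be included. Groups were taken from the labels.

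Counts were tested in edgeR 4.0.16 (R 4.3.3) with filterByExpr, TMM and the robust quasi-likelihood F test over all 6 cultures, with Benjamini-Hochberg adjustment over 14877 genes and a threshold of 0.05. Normalised counts are counts scaled to a common effective library size. In all, 690 genes were lower and 804 higher, and 3996 had an unadjusted p under 0.05. Exon lengths, coordinates and 3′ untranslated regions came from GENCODE 44 by symbol. Scripts were tested on simulated counts with 197 changed genes among those tested. The test as reported recovered 170 of them with 11 false calls. The replicate block recovered 177 with 39 false calls, and the GC and length correction with the block 174 with 36. Alternatives were other scalings, filters, DESeq2 1.42.0, limma-voom (limma 3.58.1), a GC content and transcript length correction, the replicate block and leaving out each culture.

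The members and lists were chosen with earlier results of these data known. Named were members with an adjusted p under 0.10, those with the most counts or the largest change in each family, members that appear in the study's own gene lists, and up to 4 lower and 4 higher pathway genes; other genes, such as CRMP1, NTN3, EPHB3, SEMA3B, EPHA6 and SEMA6D, were named after their values were seen. Counting error and p-values cover the spread between these cultures only.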

Additional observations from a re-analysis of the deposited data

How the results depend on the processing

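The median log2 fold change of the members, -0.03 as reported, ran from -0.07 to 0.02 over the alternatives. With all cultures 22 or 23 members were without overlap, beside 32.2% of all genes tested as reported. With single cultures left out the count was 25 to 34. Fewer values in a group make overlap less likely for any gene, and the share over all genes was not computed for these fits. Members lower, 3 as reported, came to 5 with no filter on low counts, 8 with the GC and length correction, 6 with that correction and the replicate block, and 5 with DESeq2, and members higher, 6 as reported, to 12 with the GC and length correction. Leaving out single cultures gave 1 to 6 members lower and 4 to 9 higher. The share of all genes called moved with these counts, from 10.04% as reported to 8.17% with no filter, 11.92% with DESeq2, 19.43% with the GC and length correction, 16.48% with this and the block, and 3.51% to 16.65% with single cultures left out. Other pathway genes lower, 5 as reported, came to 8 with no filter, 14 with the GC and length correction, 12 with this and the block, 8 with DESeq2 and 2 to 11 with single cultures left out. Other pathway genes higher, 4 as reported, came to 7 with at least 10 counts in every culture, 14 with the GC and length correction, 8 with this and the block, 7 with DESeq2 and 2 to 10 with single cultures left out. The median length-scaled level of the members was 3.74 by the longest transcript in place of 3.14, and 9 of the 10 highest members stayed among the 10 highest. The causes were not tested.

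Knockdown and control cultures with the same replicate number in their titles did not deviate together (correlations -0.199, -0.112 and -0.044). Knockdown replicate 1 and control replicate 3, which share number 1 in the column labels, had a correlation of -0.012. Over all combinations the correlations ran from -0.199 to 0.163, the highest between knockdown replicate 1 and control replicate 2. With 3 cultures a group the values gave no sign of pairing by replicate or column number. A shared day or batch was not tested. With the replicate block 3 members were lower and 5 higher, PLXNA4 having an adjusted p of 0.0511, and 619 and 714 of all genes were lower and higher.

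The sign of the log2 fold change turned when single cultures were left out for ROBO2 (-0.402 to 0.138), SEMA6A (-0.103 to 0.038) and SLIT2 (-0.037 to 0.124), and for SLIT2 also with the GC and length correction (-0.028) and with this and the block (-0.025); none of these genes was called in any of these fits. Standard errors over the members ran from 0.09 to 0.36 on the log2 scale; they hold both counting error and the spread between cultures, whose parts were not separated.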
